A study of Rattus norvegicus with 32 samples.

Results

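The liver meets drugs, plant toxins and the body's own steroids and bilirubin through a small set of sensor proteins and the enzymes they induce. The constitutive androstane receptor CAR (gene Nr1i3) and the pregnane X receptor PXR (Nr1i2) are nuclear receptors that act with the retinoid X receptor, and the aryl hydrocarbon receptor AhR (Ahr) is a ligand-activated factor of the basic helix-loop-helix class. In rodent liver Cyp2b1 and Cyp2b2 are the classic CAR-induced genes of the phenobarbital response, and Cyp1a1 is the classic AhR-induced gene. CAR is also known to vary with the time of day in mouse liver, under the PAR-domain factors of the circadian clock, and rat P450 enzymes are known for large sex differences. Levels of 10 genes of this system were examined: the receptor genes Nr1i3, Nr1i2 and Ahr, the P450 genes Cyp1a1, Cyp2b1, Cyp2b2 and Cyp2d3, and Ephx1, Por and Nqo1, whose enzymes act beside them. The set was fixed by gene name, with earlier results of these data known. All 10 were found among the 17327 genes of the count table, and all 10 passed the filter on low counts, which left 11002 genes.

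The study measured liver messenger RNA in Charles River Sprague Dawley rats with and without corticosteroid-binding globulin (CBG), the plasma protein that carries corticosterone and is encoded by Serpina6. Knockout rats (KO, Cbg-/-) had Serpina6 ablated by CRISPR/Cas9, and the other rats were wild type (WT, Cbg+/+). The 8 groups of 4 rats were KO and WT males at 60 days of age, KO and WT females at 60 days, KO and WT males at 30 days, and KO and WT females at 30 days, all under basal conditions. The labels name neither the site of the edit nor the number of founder lines, the hour of collection or any batch. Reads on genes numbered between 12951969 and 21954929 per library, and the 30-day libraries (16806943 or more) were deeper than most 60-day ones (17133332 or fewer). Serpina6 was lower in KO livers in every sex and age, by log2 fold changes of -3.59 ± 0.26 (SE) in 30-day females, -4.00 ± 0.26 in 30-day males, -3.44 ± 0.26 in 60-day females and -2.95 ± 0.25 in 60-day males, and no KO library reached a WT one. The 6 hepatocyte markers examined, albumin among them, were detected in every group. In bulk liver, fewer cells of a type and less RNA per cell cannot be told apart.

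Levels are given as CPM (a gene's reads scaled to a common library size) after scaling between libraries, as mean ± SD of 4 livers, and depend on gene length, so that they are compared between groups and not between genes. Differences are log2 fold changes ± SE, tested by the quasi-likelihood method of edgeR with p-values adjusted over the 11002 genes (Benjamini-Hochberg), and a gene is called at an adjusted p below 0.05. The 10 genes differed in how far they varied. Nr1i2 ranged over all 32 livers only between 96.9 and 135 CPM, and Por between 72.3 and 178 CPM. Nr1i3 ranged between 0.580 and 38.3 CPM, Cyp2b2 between 3.48 and 108 CPM and Cyp2b1 between 0.0788 and 5.70 CPM. Mean Nr1i3 was highest in KO males at 30 days (32.96 ± 4.34 CPM) and lowest in KO females at 60 days (1.56 ± 0.866 CPM), and the same pair of groups held the highest and lowest means of Nr1i2, Cyp2b1 and Cyp2b2.

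**Figure D1:**
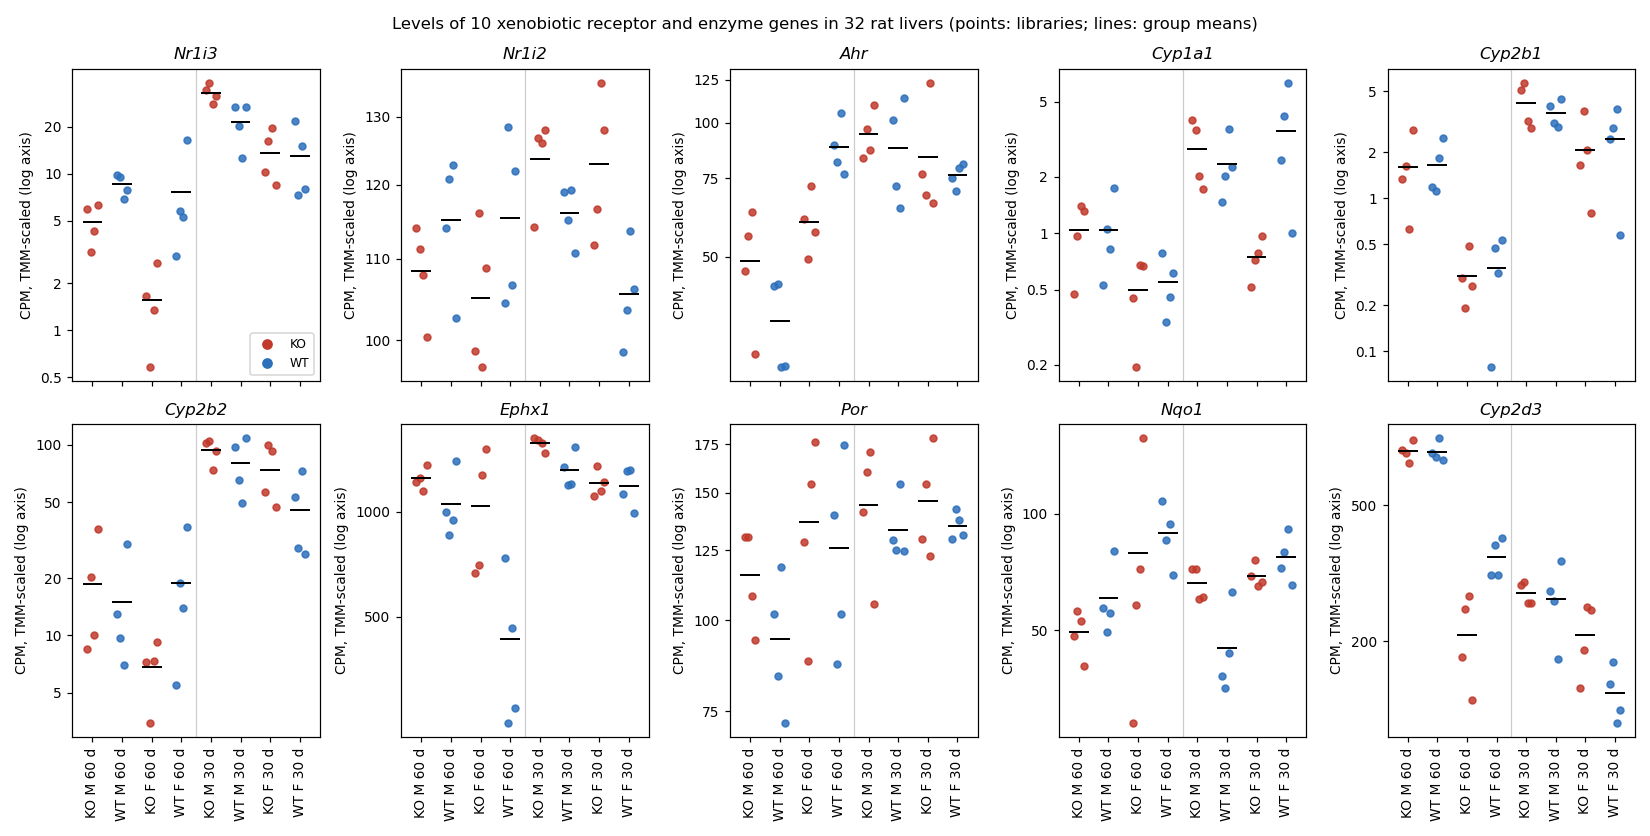
Scaled CPM (log axis, its range set for each gene) of the 10 genes in the 32 livers, with each point 1 library, short lines the means of 4, and 60-day groups left of 30-day groups. Nr1i3, Cyp2b1 and Cyp2b2 have their lowest means in 60-day KO females, where Nr1i3 averaged 1.56 CPM, against 7.64 CPM in 60-day WT females, and Cyp2d3 sits highest in 60-day males.

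KO females at 60 days had less Nr1i3 and Cyp2d3 and more Ephx1 than WT females. Of the 10 genes 3 were called, 1 higher (Ephx1) and 2 lower (Nr1i3 and Cyp2d3), where 6.77% of all genes were called, 3.48% higher and 3.29% lower. The median log2 fold change of the 10 was -0.17, against 0.01 for all genes tested. No member was called in KO males at either age, where 0.209% of all genes were called at 60 days (0.0545% higher, 0.155% lower) and 0.0545% at 30 days (0.0273% in each direction). By DESeq2 and by limma-voom 0 members were called there too, and at an unadjusted p below 0.05 edgeR gave 1 at 60 days (Ahr) and 0 at 30 days. In 30-day females 1 member, Cyp1a1, was called lower, where 0.3% of all genes were called (0.118% higher, 0.182% lower).

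**Figure D2:**
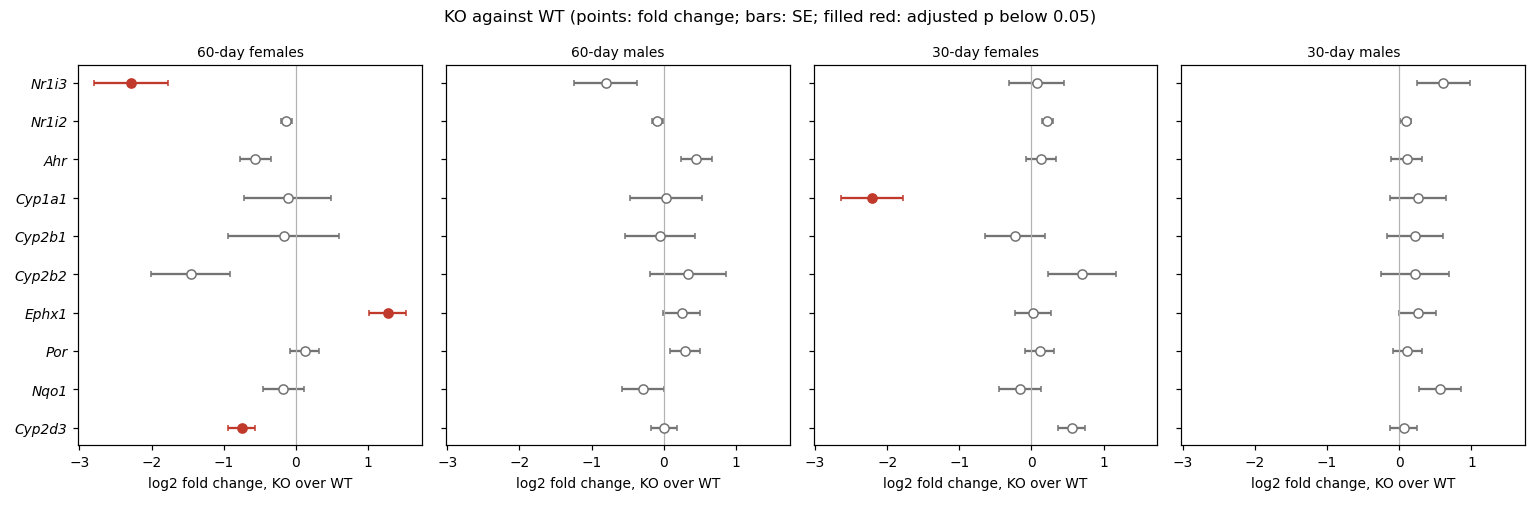
Log2 fold change of KO over WT for the 10 genes in 60-day females, 60-day males, 30-day females and 30-day males, with bars for the SE and filled red points for genes at an adjusted p below 0.05. The called changes are Nr1i3 (-2.28), Ephx1 (1.27) and Cyp2d3 (-0.75) in 60-day females and Cyp1a1 (-2.21) in 30-day females, and all 10 fold changes in 30-day males are above 0 with none called.

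Nr1i3 encodes CAR, the receptor that carries the response to phenobarbital-like inducers. At 60 days it stood at 1.65, 0.580, 1.35 and 2.67 CPM in the 4 KO females, against 2.99, 5.78, 5.34 and 16.4 CPM in the 4 WT females. Every KO female lay below every WT female, though the highest KO and the lowest WT value were close and the fourth WT liver stood apart from the other 3. The values rest on 22, 9, 22 and 40 reads in KO females, against 38, 86, 82 and 214 reads in WT females. The log2 fold change was -2.28 ± 0.52 (adjusted p = 0.00805). Without the fourth WT liver it was -1.61, with an adjusted p of 0.0593, and the call was lost. It was also lost by limma-voom (adjusted p = 0.0718) and with the spread of these 8 livers alone (0.147).

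Cyp2b2 and Cyp2b1 are the P450 enzymes whose induction defines CAR activity in the rat. Cyp2b2 had 7.27, 3.48, 7.32 and 9.23 CPM in 60-day KO females, against 5.51, 18.8, 13.9 and 37.0 CPM in 60-day WT females. In 3 of the 4 WT livers the level was above every KO liver, and the first WT liver fell within the KO range. The log2 fold change was -1.46 ± 0.55 and missed the threshold (adjusted p = 0.118). Without the first WT liver it was -1.76, with an adjusted p of 0.0424. Cyp2b1 was near the limit of detection in both groups, with 3 to 8 reads per library in KO females, against 1 to 7 in WT females, and its log2 fold change was -0.17 ± 0.76 (adjusted p = 0.929).

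The promoters of Cyp2b1 and Cyp2b2 are shown to let their letters be compared between these neighbouring paralogs. RefSeq's promoter windows on assembly GRCr8 run from 250 bases before to 50 bases after a gene's start, and 9 of the 10 genes had one. The windows of Cyp2b1 and Cyp2b2 overlapped over 283 bases when aligned, of which 275 were identical (97.2%) and 8 differed. Both are given on the + strand, with the bases that differ in capitals. They lie at chr1:90645886-90646168 (Cyp2b1) and chr1:90722031-90722313 (Cyp2b2).
Cyp2b1: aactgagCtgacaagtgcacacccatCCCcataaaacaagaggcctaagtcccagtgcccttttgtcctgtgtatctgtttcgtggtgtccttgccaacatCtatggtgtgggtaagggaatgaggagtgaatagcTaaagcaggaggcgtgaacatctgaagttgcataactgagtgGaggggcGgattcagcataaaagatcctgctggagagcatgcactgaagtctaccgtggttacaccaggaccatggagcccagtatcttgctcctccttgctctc
Cyp2b2: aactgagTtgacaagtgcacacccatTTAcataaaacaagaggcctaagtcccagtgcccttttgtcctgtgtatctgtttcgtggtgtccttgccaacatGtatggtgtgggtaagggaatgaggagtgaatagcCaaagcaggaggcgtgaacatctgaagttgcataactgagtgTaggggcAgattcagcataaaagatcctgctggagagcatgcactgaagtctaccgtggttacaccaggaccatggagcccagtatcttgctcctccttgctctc
The D-box letters TTANGTAA, searched on both strands, were found in the Cyp2b2 window at base 27, where the Cyp2b1 window has the 3 capitals CCC. Windows of the same length held these letters in 2.238% of 33469 cases. The letters GCGTG, the core to which AhR with its partner binds, were found in both windows and in 29.7% of all windows. A match describes letters and is not evidence of a bound factor. The genes are close paralogs, their transcripts were not compared here, and their reads were also added before testing. With their reads added the difference was log2 -1.42 in 60-day females (adjusted p = 0.12), 0.30 in 60-day males, 0.66 in 30-day females and 0.22 in 30-day males, with none called.

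Ephx1 encodes microsomal epoxide hydrolase, which opens the reactive epoxides that P450 enzymes form. It was higher in KO than in WT females at 60 days, opposite in direction to Nr1i3. Of the 8 groups, WT females at 60 days had the lowest mean of this gene. The level was 667, 705, 1277 and 1517 CPM in KO females, against 739, 248, 463 and 273 CPM in WT females. The groups overlapped through the first WT liver, which lay above the 2 lower KO livers. Means were 1041 ± 423 CPM in KO and 431 ± 227 CPM in WT livers, a log2 fold change of 1.27 ± 0.26 (adjusted p = 0.00321). The call was kept whichever of the 8 livers was left out, with adjusted p between 3.32e-05 and 0.0172, but was lost when the spread was estimated from the 16 livers of 60 days (0.0632) or from these 8 livers alone (0.247).

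The Ephx1 promoter is shown as that of the 1 gene of the set called higher in KO than in WT livers. RefSeq gives 2 starts for Ephx1, and the counts do not tell them apart. The window of the start further into the gene, at chr13:95263068-95263367 on the - strand of GRCr8, is printed with motif letters in capitals.
Ephx1: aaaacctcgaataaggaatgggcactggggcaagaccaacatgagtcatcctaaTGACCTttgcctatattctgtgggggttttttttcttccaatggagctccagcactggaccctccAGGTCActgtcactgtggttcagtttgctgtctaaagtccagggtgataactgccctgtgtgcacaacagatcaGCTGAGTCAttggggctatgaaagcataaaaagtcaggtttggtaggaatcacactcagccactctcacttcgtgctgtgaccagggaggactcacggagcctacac
It holds 2 copies of AGGTCA, the hexamer that nuclear receptors bind, 1 of them on the other strand, and letters of the antioxidant response element TGACNNNGC on the other strand, to which NRF2 binds. Of all windows, 16.18% held AGGTCA and 12.06% held TGACNNNGC. The window of the other Ephx1 start and that of Nr1i2 each held TGTTCT, a core of the glucocorticoid receptor's site, as did 20.68% of all windows. The E-box CACGTG was in no window of the set and in 6.418% of all windows. None of these letters was found in the windows of Nr1i3, Ahr and Cyp2d3. The Por window held GCGTG 3 times and AGGTCA 1 time, and the Nqo1 window GCGTG 1 time.

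Cyp2d3 belongs to the Cyp2d family, the rat relatives of the human drug-metabolising enzyme CYP2D6. At 60 days it had 180, 249, 271 and 135 CPM in KO females, against 313, 381, 313 and 400 CPM in WT females, with no overlap. The log2 fold change was -0.75 ± 0.19 (adjusted p = 0.0137). It lost its call without the first KO liver (adjusted p = 0.0589) or without the fourth WT liver (adjusted p = 0.0535), and with the spread of these 8 livers alone (0.135). Of 5 tested relatives in the Cyp2b and Cyp2d families, 3 fell in KO females: Cyp2b3 by log2 -0.50 ± 0.12 (adjusted p = 0.0133), Cyp2d1 by -0.47 ± 0.13 (adjusted p = 0.0207) and Cyp2d5 by -0.91 ± 0.26 (adjusted p = 0.0365). All 5 had fold changes below 0, with a median of -0.47. When single livers were left out 0 to 4 of these relatives were called, 0 without the fourth WT liver and 1 without the first KO liver, and reads shared within the families could not be parted.

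The other 5 genes of the set were not called in 60-day females. Ahr had 60.7, 49.3, 72.2 and 56.8 CPM in KO females, against 89.3, 81.5, 106 and 76.7 CPM in WT females. These values did not overlap, but the log2 fold change of -0.56 ± 0.21 missed the threshold (adjusted p = 0.114). Nr1i2 averaged 105 ± 9.00 CPM in KO and 115 ± 11.7 CPM in WT females. Por, the reductase that passes electrons to every microsomal P450, averaged 137 ± 38.1 CPM in KO and 126 ± 39.3 CPM in WT females. Nqo1, a quinone reductase under NRF2 and AhR, had 28.8, 58.2, 72.1 and 157 CPM in KO females, against 108, 85.7, 93.9 and 69.5 CPM in WT females. The Nqo1 values of KO females held both the lowest and the highest level of this gene in all 32 livers, and without the fourth KO liver its log2 fold change was -0.75 (adjusted p = 0.0448). Cyp1a1 was low in both groups, at 3 to 11 reads per library in KO females and 5 to 10 in WT females.

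Clock genes differed between the same livers. Of 13 clock genes tested, 4 rose in 60-day KO females (Per3, log2 1.80 ± 0.31; Per2, 1.60 ± 0.28; Tef, 0.94 ± 0.18; Dbp, 2.27 ± 0.45) and Npas2, a partner of the clock's activating arm, fell by 0.54 ± 0.15. Adjusted p-values were 6.96e-04 for Per3, 9.87e-04 for Per2, 0.00188 for Tef, 0.0026 for Dbp and 0.0299 for Npas2. A clock score was taken as the mean log2 CPM of 7 clock genes less that of 3 genes of the opposite phase, as a summary of clock phase. It was 0.44, -0.14, -1.16 and -0.83 in KO females, against -1.13, -2.14, -1.25 and -1.79 in WT females. The highest score, 0.44, was that of the first KO liver, in which 12 retina markers summed to 2038 CPM. The part of those retina transcripts in its score was not tested. The WT livers with the lowest scores, the second and the fourth, held the least Ephx1 and the most Nr1i3, Cyp2b2 and Cyp2d3 of the 4 WT females. Among KO females Ephx1 ran the other way. The KO livers with the lowest scores, the third and the fourth, held 1277 and 1517 CPM, against 667 and 705 CPM in the first and second. They also held the most Cyp2b2 of the KO females, but Nr1i3 and Cyp2d3 were not ordered by the score there. With the score as a covariate the fold change of Nr1i3 was -1.57 (adjusted p = 0.259) and that of Cyp2d3 -0.67 (adjusted p = 0.207), and Ephx1 alone of the 3 was still called. Cyp2b2, not called without the score, had -0.31 with it, and the summed Cyp2b1 and Cyp2b2 reads had -0.26, neither of them called. Per3, Per2, Tef and Dbp kept their calls in all 8 fits that left out a liver, with Dbp at 1.45 without the first KO liver (adjusted p = 0.0187). Npas2 was called in 2 of the 8, with adjusted p up to 0.0956 without the fourth KO liver. The part of collection time in these differences was not tested, since the labels give no hour.

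**Figure D3:**
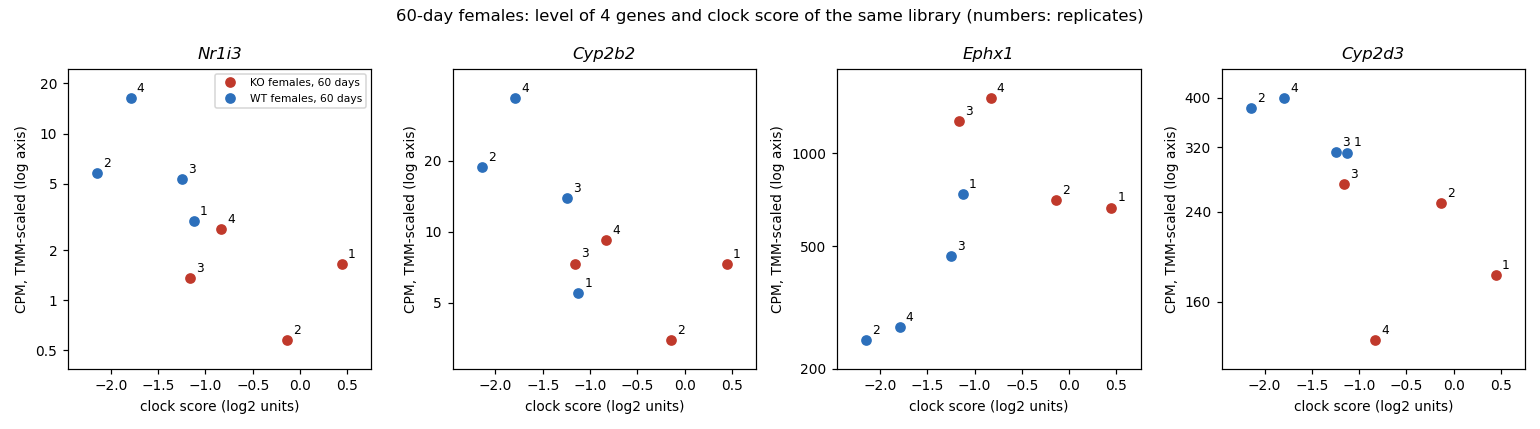
Scaled CPM (log axis) of Nr1i3, Cyp2b2, Ephx1 and Cyp2d3 against the clock score of the same library in 60-day females, KO in red and WT in blue, with replicate numbers beside the points. KO scores run between -1.16 and 0.44 and WT scores between -2.14 and -1.13, and the WT livers numbered 2 and 4, at the lowest scores, have the lowest Ephx1 and the highest Nr1i3. Among KO livers those numbered 3 and 4, at the lowest KO scores, have the highest Ephx1. The KO liver numbered 1, at 0.44, carried retina transcripts.

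Some markers of liver zones and other cells also differed in 60-day females, where 6.77% of all genes were called. Of 6 hepatocyte, 6 Kupffer cell, 4 endothelial, 4 stellate cell, 4 lymphocyte and 4 erythroid markers tested, 0 were called. CAR and several P450 enzymes are known to be richest in pericentral hepatocytes, and of 10 pericentral markers 4 were lower in KO females. Their summed level was 4164 to 6779 CPM in KO, against 5894 to 8237 CPM in WT livers. Of 9 periportal markers 2 were lower (sums 7707 to 8914 CPM in KO, against 8090 to 11222 CPM in WT), and of 4 cholangiocyte markers tested 1 was higher (16.8 to 20.5 CPM in KO, against 14.2 to 15.4 CPM in WT). The first KO liver carried retina transcripts, with 12 retina markers summing to 2038 CPM. The same sum was 4.88 to 10.9 CPM in the remaining KO livers and 2.89 to 7.15 CPM in WT livers. All 5 retina markers tested were called higher. Without that liver 2 members stayed called, Nr1i3 and Ephx1. The part of cell and zone composition in the changes was not tested.

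Wider lists of genes of the same system were also counted in 60-day females. Of 22 other genes known to be induced through CAR or PXR, 3 rose and 1 fell, with a median log2 fold change of 0.39, against 0.01 for all genes. Cyp3a9, a steroid-metabolising P450, fell to 87.4 ± 32.2 CPM in KO females, against 426 ± 83.8 CPM in WT females (log2 -2.29 ± 0.30, adjusted p = 3.95e-05). Aldh1a1, which oxidises retinal, averaged 259 ± 72.3 CPM in KO and 138 ± 34.9 CPM in WT females (log2 0.91 ± 0.22, adjusted p = 0.0124). Cyp3a62 rose by log2 1.08 ± 0.29 (adjusted p = 0.0238) and Gsta2, a glutathione transferase, by 0.83 ± 0.23 (adjusted p = 0.025). Leaving out single livers gave 1 to 6 calls on this list, the fewest without the second WT liver, and only the fall of Cyp3a9 was kept in all 8 fits.

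Among other AhR-induced genes, Cyp1a2, the abundant P450 of that family in liver, fell to 484 ± 107 CPM in KO females, against 1033 ± 185 CPM in WT females (log2 -1.09 ± 0.16, adjusted p = 1.35e-04), and was the 1 call of 3 tested. This call was kept in all 8 fits that left out a liver. Of the 3 genes tested 2 had fold changes above 0, and the median log2 fold change was 0.46, against 0.01 for all genes. Of 12 NRF2 targets and regulators 4 rose and none fell. They were the aldo-keto reductase gene Akr1b8 (log2 3.30 ± 0.88, adjusted p = 0.0237), Gsta2, the glutathione synthesis gene Gclc (0.56 ± 0.17, adjusted p = 0.0445) and the sulfiredoxin gene Srxn1 (0.70 ± 0.22, adjusted p = 0.0481). The fourth KO liver also had the highest Ephx1 and Nqo1 of its group, and without it none of the list was called, with an adjusted p of 0.417 for Akr1b8. Nor was any called without the second WT liver, and the other 6 fits gave 1 to 4 calls. Of 19 partners and regulators of the receptors, among them the retinoid X receptors and the glucocorticoid receptor Nr3c1, and of 14 genes for P450 electron transfer and haem, 0 were called by edgeR, while 2 partners and regulators and 3 electron transfer and haem genes had an unadjusted p below 0.05.

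In the other 3 comparisons of KO with WT livers 0 of the 83 genes on these lists, clock genes included, were called by edgeR, and an unadjusted p below 0.05 was reached by 6 in 60-day males, 10 in 30-day females and 5 in 30-day males. The largest fold changes among them were those of Aldh1a7, an aldehyde dehydrogenase gene on the list of CAR and PXR inducible genes, which was chosen for description after its values were seen. At 30 days Aldh1a7 stood at 1.71, 1.92, 1.91 and 2.10 CPM in KO females, against 72.8, 79.4, 86.4 and 0.997 CPM in WT females. In 30-day males it stood at 1.25, 0.565, 1.66 and 1.37 CPM in KO livers, against 65.8, 50.3, 117 and 68.5 CPM in WT livers. All 8 KO livers of that age were low and 7 of the 8 WT livers were high, the exception being the fourth WT female, which lay below every KO female. The log2 fold changes of -4.97 ± 1.299 in females (adjusted p = 0.11) and -5.95 ± 1.38 in males (adjusted p = 0.122) missed the threshold. At 60 days Aldh1a7 was 93.1 to 257 CPM in KO females, against 1.18 CPM in the first and 118 to 166 CPM in the other 3 WT females. In 60-day males it was 0.711 CPM in the first and 37.3 to 154 CPM in the other 3 KO livers, against 0.531 CPM in the first and 38.2 to 67.1 CPM in the other 3 WT livers. Low and high livers thus occurred in both genotypes, though in unequal numbers at 30 days.

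In females at 30 days Cyp1a1, the inducible P450 that oxidises polycyclic hydrocarbons, was lower in KO livers. It had 0.520, 0.719, 0.784 and 0.970 CPM in KO females, against 2.44, 4.19, 6.30 and 0.997 CPM in WT females. The groups did not overlap, but the fourth WT liver lay next to the KO range. Counts were 10, 15, 16 and 18 reads in KO females, against 50, 80, 126 and 19 reads in WT females. The log2 fold change was -2.21 ± 0.43 (adjusted p = 0.0238), and the call was lost in 6 of the 8 fits that left out a liver, without the second WT liver, without the third WT liver or without any of the 4 KO livers, with adjusted p between 0.0578 and 0.0911. It was also lost by limma-voom (adjusted p = 0.0941). The clock score of these livers was -0.97, -1.19, -0.67 and -0.41 in KO females, against -1.48, -1.50, -1.61 and -1.06 in WT females, and with it as a covariate the fold change was -1.68 (adjusted p = 0.186). Of 4 stellate cell markers tested 1 was lower in KO females at this age, and the part of cell composition was not tested. The AhR-regulated relative Cyp1a2 was not called at this age.

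Library titles at 30 days carry a second number, 1 or 2, whose meaning the labels do not give, and it is unevenly spread over the groups. All 4 KO females had number 2, and of the 4 WT females 1 had number 2 and 3 had number 1. Over the 16 livers of 30 days Cyp1a1 was 0.520 to 2.01 CPM (median 0.984) in the 8 with number 2, against 2.02 to 6.30 CPM (median 3.55) in the 8 with number 1, so the numbers parted the levels without overlap. In a fit to these 16 livers with group means, number 2 went with a log2 difference of -1.13 ± 0.31 in Cyp1a1 (edgeR, adjusted p = 0.78), where 0.00919% of 10887 genes were called. In the fit to these 16 livers the KO effect on Cyp1a1 in females was -2.22 (adjusted p = 0.0684) without the number, so that its call was already lost, and -1.24 (adjusted p = 0.283) with the number. Genotype and title number cannot be told apart within KO females, since none of them has number 1. This comparison was chosen after the Cyp1a1 values were seen.

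**Figure D4:**
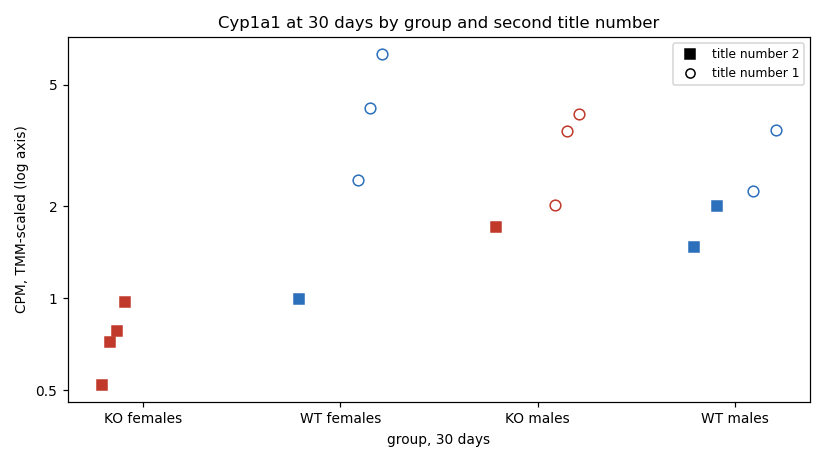
Cyp1a1 (scaled CPM, log axis) in the 16 livers of 30 days by group, with KO in red, WT in blue, filled squares for title number 2 and open circles for title number 1. Squares lie at 0.520 to 2.01 CPM and circles at 2.02 to 6.30 CPM, and KO females have squares alone.

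None of the other members was called between 30-day KO and WT females. Cyp2d3 averaged 208 ± 50.1 CPM in KO and 142 ± 26.1 CPM in WT livers (log2 0.56 ± 0.19, adjusted p = 0.24), and Nr1i2 123 ± 10.7 CPM in KO and 106 ± 6.30 CPM in WT livers (log2 0.22 ± 0.08, adjusted p = 0.259). Nr1i3 averaged 13.7 ± 5.15 CPM in KO and 13.0 ± 6.81 CPM in WT females, with a log2 fold change of 0.07 ± 0.38. Cyp2b2 had 56.7, 99.3, 92.8 and 47.0 CPM in KO females, against 53.4, 28.7, 73.2 and 26.9 CPM in WT females (log2 0.70 ± 0.48, adjusted p = 0.641).

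Of the 10 genes Nr1i3 had the largest log2 fold change between KO and WT males at both ages, but it was not called. At 60 days Nr1i3 had 5.92, 3.18, 4.34 and 6.31 CPM in KO males, against 9.89, 9.58, 6.93 and 7.90 CPM in WT males. The groups did not overlap and the direction was that of the females, but the log2 fold change of -0.81 ± 0.44 missed the threshold (adjusted p = 0.53). At 30 days the order was the other way round, with 34.2, 38.3, 28.1 and 31.3 CPM in KO males, against 26.8, 20.1, 12.7 and 26.8 CPM in WT males (log2 0.61 ± 0.36, adjusted p = 0.875). Ahr averaged 48.9 ± 14.2 CPM in KO and 35.7 ± 8.62 CPM in WT males at 60 days (log2 0.45 ± 0.22, adjusted p = 0.453). Nqo1 averaged 66.2 ± 6.58 CPM in KO and 44.9 ± 12.3 CPM in WT males at 30 days (log2 0.56 ± 0.29, adjusted p = 0.84). Cyp2d3 averaged 717 ± 45.4 CPM in KO and 715 ± 47.4 CPM in WT males at 60 days, a log2 fold change of 0.01 ± 0.19.

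Whether the knockout effect differed between ages or sexes was tested directly. In females the KO effect at 60 days less that at 30 days was -2.36 ± 0.64 for Nr1i3 (adjusted p = 0.0435) and -1.31 ± 0.26 for Cyp2d3 (adjusted p = 0.0068). These were the 2 members called for this difference, where 2.96% of all genes were. Ephx1, with a difference of 1.25 ± 0.36, missed the threshold (adjusted p = 0.053). It was called in 4 of 7 other settings with every liver kept, upper-quartile scaling (adjusted p = 0.0476), limma-voom (0.0421), DESeq2 (0.0105) and the authors' log2 values (0.0315). It was also called in 4 of 16 fits that left out a liver, with log2 1.64 (adjusted p = 0.002) without the first WT female of 60 days. Cyp2b2 had -2.16 ± 0.73 (adjusted p = 0.1). The Nr1i3 call was lost in 11 of 16 fits that left out 1 liver, with adjusted p up to 0.135 without the fourth WT female of 60 days, and in 4 of 7 other settings, with adjusted p between 0.059 and 0.168. The Cyp2d3 call was kept in all 16 and was lost in the fit to the 16 female livers (adjusted p = 0.059). In males no member was called (0.00909% of all genes), though the Nr1i3 difference was -1.42 ± 0.57 (adjusted p = 0.859). No member's KO effect was called as different between females and males, at 60 days (0.136% of all genes) or at 30 days (0% of all genes). At an unadjusted p below 0.05 edgeR gave 2 members for the age difference in males, 5 for the sex difference at 60 days and 1 for that at 30 days, and DESeq2 and limma-voom called 0 in each of the 3. At 60 days the effect in females less that in males was 1.03 ± 0.36 for Ephx1 (adjusted p = 0.277), -1.48 ± 0.69 for Nr1i3 (adjusted p = 0.45) and -1.02 ± 0.30 for Ahr (adjusted p = 0.185). The Ephx1 value alone of these came past the threshold when a liver was left out, at 1.42 (adjusted p = 0.0176) without the first WT female. At 30 days it was -2.48 ± 0.58 for Cyp1a1 (adjusted p = 0.521).

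For changes with age, the 10 genes were tested in 4 comparisons of 60-day with 30-day livers. In KO females 4 genes were called, where 22.7% of all genes were. In WT females it was also 4, with 33.1% of all genes. In KO males 6 were called, where 28.4% of all genes were, and in WT males 6, where 31.5% were. The ages also differ in the form of the library titles and in sequencing depth, and the parts of these in the changes were not tested. Cyp2b1 was lower at 60 days in all 4 comparisons, by log2 -2.69 ± 0.57 in KO females, -1.42 ± 0.44 in KO males, -2.75 ± 0.56 in WT females and -1.15 ± 0.43 in WT males. Cyp2b2 was called lower in 3 of them, by -3.44 ± 0.55 in KO females, -2.33 ± 0.51 in KO males and -2.44 ± 0.52 in WT males, and had -1.28 ± 0.50 in WT females (adjusted p = 0.0509), a value called in 5 of 8 other settings with every liver kept (adjusted p between 0.0132 and 0.042). Nr1i3 was called lower in the same 3 comparisons, by -3.14 ± 0.49 in KO females, -2.75 ± 0.42 in KO males and -1.33 ± 0.39 in WT males, and had -0.78 ± 0.40 in WT females (adjusted p = 0.141).

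**Figure D5:**
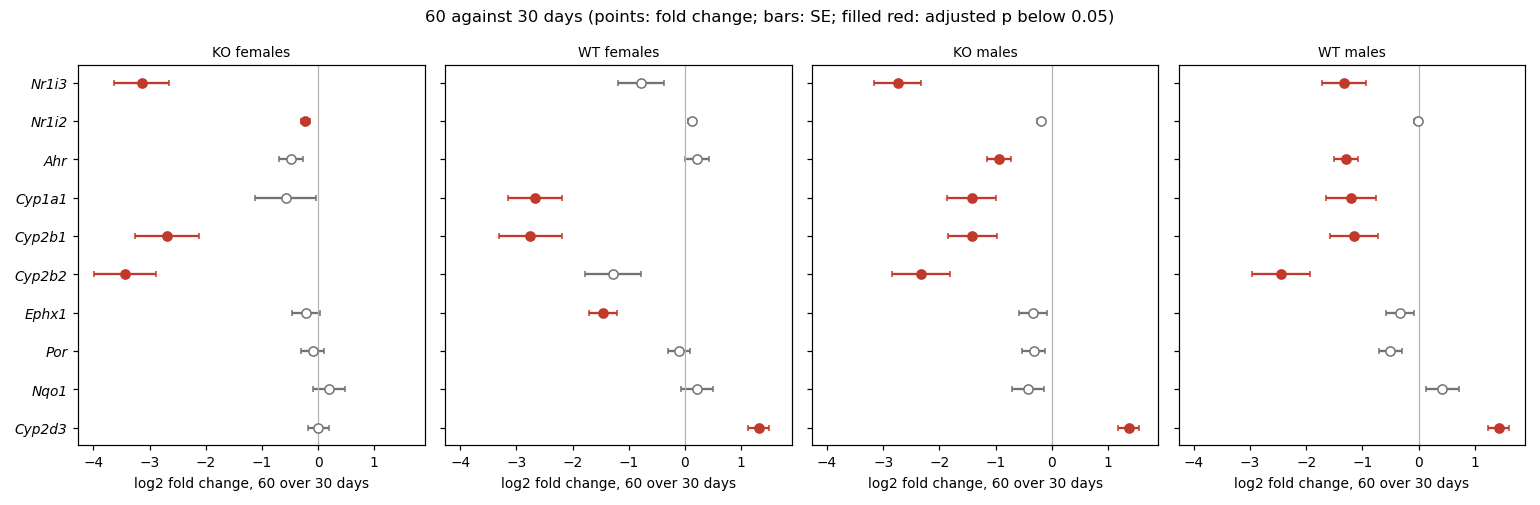
Log2 fold change of 60 over 30 days for the 10 genes in KO females, WT females, KO males and WT males, with bars for the SE and filled red points for genes at an adjusted p below 0.05. Cyp2b1 is red below 0 in all 4 panels, and Cyp2d3 is red above 0 in WT females, KO males and WT males but lies at 0.01 in KO females.

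Cyp2d3 rose with age in 3 of the 4 comparisons, by log2 1.37 ± 0.19 in KO males, 1.31 ± 0.19 in WT females and 1.43 ± 0.19 in WT males. In KO females it stood at 209 ± 62.6 CPM at 60 days and 208 ± 50.1 CPM at 30 days, a log2 fold change of 0.01 ± 0.19. Ephx1 fell with age in WT females, to 431 ± 227 CPM at 60 days, against 1186 ± 157 CPM at 30 days (log2 -1.46 ± 0.26, adjusted p = 6.64e-05). In KO females it averaged 1041 ± 423 CPM at 60 days and 1208 ± 104 CPM at 30 days (log2 -0.21 ± 0.25, adjusted p = 0.601). Ahr fell in males of both genotypes, by -0.95 ± 0.21 in KO and -1.30 ± 0.22 in WT livers. Cyp1a1 fell in KO males (-1.43 ± 0.44), WT females (-2.67 ± 0.48) and WT males (-1.20 ± 0.44), and Nr1i2 fell by 0.23 ± 0.08 on the log2 scale in KO females. That Nr1i2 call was lost in the edgeR fits to 16 and to 8 livers (adjusted p = 0.0853 and 0.109). In KO males Nr1i2 had log2 -0.19 ± 0.08 and missed the threshold (adjusted p = 0.0601). There it was called in 4 of 8 other settings with every liver kept, with adjusted p between 3.34e-04 (limma on the authors' log2 values) and 0.0459 (edgeR). Por and Nqo1 were called in none of the age comparisons by this test. In KO males Por was called with the authors' log2 values (log2 -0.50, limma adjusted p = 0.042) and Nqo1 in the fit to the 8 livers compared (-0.42, adjusted p = 0.0109).

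Some of these calls rest on few livers. Without single livers the call of Cyp1a1 in WT males was lost in 5 of 8 fits (adjusted p up to 0.15) and that of Cyp2b1 in WT males in 6 of 8 (up to 0.12). In KO males Cyp1a1 lost its call without the first liver of either age, and Cyp2b1 without the second liver of 30 days or the third liver of 60 days, with adjusted p up to 0.0624. The call of Nr1i2 in KO females was lost in 4 of 8 fits (up to 0.124). Nr1i3 in WT females gained a call without the fourth 60-day liver, at log2 -1.46 (adjusted p = 0.00607), and Cyp2b2 there gained one in 3 of 8 fits. Por in WT males, with log2 -0.50 ± 0.20 (adjusted p = 0.0582), was called without the third liver of 60 days (adjusted p = 0.0301) and in 6 of 8 other settings with every liver kept, with adjusted p between 0.00748 and 0.0463.

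Between males and females more members were called at 60 than at 30 days, as were more of all genes. At 60 days 3 members were called among KO livers, where 18.5% of all genes were, and 4 among WT livers, where 26.4% were. At 30 days 1 member was called among KO livers, where 2.24% of all genes were, and 1 among WT livers, where 2.07% were. Cyp2d3 was higher in males in 60-day KO (log2 1.78 ± 0.19, adjusted p = 6.13e-08), 60-day WT (1.02 ± 0.19, adjusted p = 1.2e-04) and 30-day WT livers (0.91 ± 0.19, adjusted p = 0.00644). Cyp2b1 was higher in males at 60 days in both genotypes, at 1.60 ± 0.897 CPM in KO males and 0.313 ± 0.127 CPM in KO females, and at 1.66 ± 0.632 CPM in WT males and 0.353 ± 0.203 CPM in WT females. Ephx1 was higher in males among 60-day WT livers, at 1052 ± 240 CPM in males and 431 ± 227 CPM in females (log2 1.29 ± 0.26, adjusted p = 3.42e-04). Among 60-day KO livers it averaged 1248 ± 91.0 CPM in males and 1041 ± 423 CPM in females (log2 0.26 ± 0.25, adjusted p = 0.537). Ahr was lower in males among 60-day WT livers, at 35.7 ± 8.62 CPM in males and 88.3 ± 12.6 CPM in females (log2 -1.30 ± 0.22, adjusted p = 4.22e-05), and had -0.29 ± 0.21 among KO livers (adjusted p = 0.401). Nr1i3 was called among 60-day KO livers, at 4.94 ± 1.45 CPM in males and 1.56 ± 0.866 CPM in females (log2 1.66 ± 0.54, adjusted p = 0.0317), and averaged 8.57 ± 1.40 CPM in males and 7.64 ± 5.999 CPM in females among WT livers (adjusted p = 0.805). Among 30-day KO livers Nr1i3 averaged 32.96 ± 4.34 CPM in males and 13.7 ± 5.15 CPM in females, without overlap. The log2 fold change of 1.26 ± 0.37 there missed the threshold (adjusted p = 0.0744). It was called by limma-voom (adjusted p = 0.00934), and by edgeR with the clock score (0.037) and in the fit to these 8 livers (0.0334). Cyp1a1 was higher in males among 30-day KO livers (log2 1.90 ± 0.44, adjusted p = 0.0139), where title numbers also differ between the sexes. That call was lost by limma-voom (adjusted p = 0.0556) and in the fit to the 16 livers of 30 days (log2 1.90, adjusted p = 0.0509), where adding the number gave 0.99 (adjusted p = 0.386).

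Without single livers the call of Nr1i3 among 60-day KO livers was lost in 5 of 8 fits, without the first, the second or the third female or the first or the fourth male (adjusted p up to 0.104). It was also lost with the clock score (log2 1.08, adjusted p = 0.311) and by limma-voom (1.78, adjusted p = 0.104). The call of Cyp2b1 among 60-day KO livers was lost with the clock score (1.09, adjusted p = 0.259) and by limma-voom (2.09, adjusted p = 0.0842). That of Cyp1a1 among 30-day KO livers was lost without the first female or without the first or second male (adjusted p up to 0.0673). Nqo1 among 60-day KO livers, at 49.4 ± 6.77 CPM in males and 79.0 ± 55.0 CPM in females, came past the threshold without the first female, which carried the retina transcripts (log2 -0.95, adjusted p = 0.00614). In the same comparison Cyp2b2, with log2 1.45 ± 0.55 (adjusted p = 0.0721), was called without the first or the third male. Por among 60-day WT livers, with log2 -0.42 ± 0.20 (adjusted p = 0.134), was called without the second female (adjusted p = 0.0469). Nqo1 among 30-day WT livers averaged 44.9 ± 12.3 CPM in males and 77.1 ± 11.1 CPM in females, without overlap. The log2 fold change there was -0.78 ± 0.29 (adjusted p = 0.209). It was called in the edgeR fit to the 16 livers of 30 days (adjusted p = 0.00891) and with the title number added (0.0038). Among 60-day WT livers Nqo1 was called in the edgeR fit to the 8 livers compared (log2 -0.56, adjusted p = 0.0359).

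The genes whose profile over the 32 livers lay nearest to each member were found as those with the smallest root mean square distance of centred log2 CPM, a description with no test. Nr1i3 and Cyp2b2 were close to each other: Cyp2b2 was the nearest of all 11002 genes to Nr1i3, at 0.70 log2 units, and Nr1i3 the second nearest to Cyp2b2. Both had Rhbg, an ammonium transporter of pericentral hepatocytes, as the other near gene, at 0.86 for Nr1i3 and 0.62 for Cyp2b2. The SD of the gene itself over the livers was 1.39 log2 units for Nr1i3 and 1.48 for Cyp2b2. Nearest to Cyp2d3 was Gpld1 at 0.43, and nearest to Ephx1 was Rhoc at 0.34. Ahr lay nearest to Avpr1a at 0.31, Cyp1a1 to Sri at 0.64, Cyp2b1 to Exnef at 0.66, Por to Naa20 at 0.23, Nqo1 to Slc17a3 at 0.36 and Nr1i2 to Zdhhc6 at 0.10. Libraries share age, sex and depth, which enter all these distances.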

How the data were processed

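Per the labels' protocols RNA came from whole liver homogenised in Trizol, and messenger RNA libraries kept the strand. The submitters' processing notes name STAR, Cufflinks, limma and the rat build Rnor_5.0 without roles or versions. Counting tool: not given in the sources used here. Raw counts of reads per gene were deposited by the authors for 17327 genes in 32 libraries. The log2 values that the authors deposited for 11344 genes equalled log2 CPM recomputed from the counts with 0.5 added, to 5e-09. Lines for reads on no feature (18.05% to 21.18%) and ambiguous reads (0.262% to 0.648%) were left out of all steps.

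The test was edgeR's (version 4.0.16, R 4.3.3): filterByExpr with a minimum count of 10, trimmed mean of M-values scaling, and 1 robust quasi-likelihood model with a mean for each of the 8 groups over the 32 libraries (24 residual degrees of freedom). P-values were adjusted by Benjamini and Hochberg over 11002 genes within each contrast. The model was tested on simulated data. Replicates are numbered in sample order; counts of every replicate pair differed beyond sampling noise (chi-square over its degrees of freedom between 10.6 and 55.6). Alternatives were DESeq2 1.42.0, limma-voom and the authors' log2 values with limma 3.58.1, upper-quartile scaling, no filter, fits to 16 or 8 libraries, the clock score or the 30-day title number as covariates, and leaving out each library. Leaving out livers for the gene lists, and the test of the title number, were added after seeing the data.

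The 10 genes, the gene lists, markers and motifs were chosen with earlier results of these data known. Genes named outside the set were up to 4 called genes per list and KO comparison with the smallest adjusted p, with Npas2 and Aldh1a7 added after their values were seen, the nearest genes of each member by profile over the livers (2 each, of which the nearest is given), and Serpina6. Promoter windows came from RefSeq on GRCr8, a later build than that of the counts.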

Additional observations from a re-analysis of the deposited data

Results flagged for a closer look

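The knockout effect on Nr1i3 and on Cyp2d3 in females differed between the ages when the difference itself was tested. For Nr1i3 the KO effect at 60 days less that at 30 days was -2.36 on the log2 scale, and for Cyp2d3 it was -1.31. The Nr1i3 call was lost in 11 of 16 fits that left out a liver and in 4 of 7 other settings, and that of Cyp2d3 in the fit to 16 livers (adjusted p = 0.059). Within groups, 2 of the 80 sets of 4 values held 1 liver far from the other 3, where chance gives about 1 in 20. Nr1i2 stood at 114 CPM in the first KO male of 30 days, against 126 to 128 CPM in the other 3 KO males. Por stood at 154 CPM in the third WT male of 30 days, against 125 to 129 CPM in the other 3 WT males.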

How the results depend on the processing

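No paired analysis was possible because replicate numbers only follow sample order. The 30-day title number, shared across groups, was fitted as a covariate instead. Of 2885 values of single members under other settings, 2747 kept their side of the threshold, 79 lost a call, 59 gained one and 0 changed sign while called. Values called in neither fit were counted as kept even where their sign changed. The count of members called in 30-day females, KO against WT, was 0 with the clock score, with limma-voom, with the authors' log2 values, in fits to 16 or to 8 libraries and with the title number, against 1 in the test reported, and 0 to 1 when single livers were left out. In 60-day females it was 1 with the clock score and 0 in the fit to 8 libraries, against 3, and 1 to 4 when livers were left out. Smaller moves of the count are not all listed here. In 60-day females Nr1i3 was also lost by limma-voom (adjusted p = 0.0718) and Ephx1 in the edgeR fit to 16 libraries (0.0632). For age by genotype in females the count was 1 without the filter on low counts, 1 with the clock score, 4 with DESeq2, 4 with the authors' log2 values and 0 in the fit to 16 libraries, against 2, and 1 to 5 with livers left out. For sex by genotype at 60 days it was 0 to 1 with livers left out. Between males and females it was, among 30-day KO livers, 3 with the clock score, 3 in the fit to 8 libraries and 0 with the title number, against 1, and 0 to 1 with livers left out. Among 60-day KO livers it was 1 with limma-voom, against 3, and among 30-day WT livers 2 in the fit to 16 libraries, 0 in that to 8 and 2 with the title number, against 1. The summed Cyp2b1 and Cyp2b2 change in 60-day females was -1.72 to -0.88 with livers left out and -1.43 to -0.26 under other settings. The cause of these changes was not tested; fits to fewer libraries rest on fewer degrees of freedom. Depth limits Cyp1a1 and Cyp2b1, which had as few as 3 and 1 reads in a library of 60-day females.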
